A study of Mus musculus with 18 samples.

Results

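A set of 8 red cell genes was followed through RNA-seq libraries of mouse lenses, out of 40800 genes in the count table. They are the adult alpha globin genes Hba-a1 and Hba-a2, the adult beta globin genes Hbb-bs and Hbb-bt, the embryonic globin genes Hbb-y and Hba-x, the erythroid heme synthesis gene Alas2 and the red cell anion exchanger gene Slc4a1, and each was found in the table by its symbol. The libraries came from lenses of C57BL/6J knock-in mice of 2 lines. The first line carries the R49C change in αA-crystallin and gave Cryaa-WT lenses and those heterozygous (Cryaa-R49C-het) or homozygous (Cryaa-R49C-homo) for it, at 2 days of age. The second carries the R120G change in αB-crystallin and gave Cryab-WT, heterozygous (Cryab-R120G-het) and homozygous (Cryab-R120G-homo) lenses at 14 days of age. There were 3 libraries in each of the 6 groups, each made from several pooled lenses, so line and age cannot be told apart and the spread between libraries is a spread between pools. The genotype field of the 6 Cryab mutant libraries names the other line, and their groups were taken from the sample titles. The members were chosen by measured values: 5 of the 8 had been named for a higher level in Cryab-R120G-het than in Cryab-WT lenses of these same libraries, so that contrast is described here without a test.

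Adult hemoglobin is a tetramer of alpha and beta globin chains, each holding a heme group, and red cell precursors make its mRNA in large amounts. Alas2 catalyses the first and rate-limiting step of heme synthesis in those precursors. The lens has no blood vessels of its own after birth, but in the newborn mouse it is still wrapped in a network of hyaloid and pupillary vessels that regresses during the first postnatal weeks. Definitive red cells, which make the adult globins, lose their nucleus before they enter the circulation, and reticulocytes, the youngest circulating red cells, still carry globin and Alas2 mRNA.

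The alpha globin genes lie close together on chromosome 11 (GRCm38, Hba-a1 at 32283511 to 32284465 and Hba-a2 at 32296489 to 32297298, both on the plus strand), and the beta globin genes on chromosome 7 (Hbb-bs at 103826534 to 103828096 and Hbb-bt at 103812524 to 103813996, both on the minus strand). The members of each pair are nearly the same sequence, and this limits what a 50-base read can say about either. The coding sequences of Hba-a1 and Hba-a2, 426 bases long without the stop codon in the GENCODE annotation, differ at 1 base, C381T, counted from the first base of the start codon with the Hba-a1 base first. Those of Hbb-bs and Hbb-bt, 441 bases long, differ at C417T with the Hbb-bs base first. The stretches around these bases, at chr11:32284313-32284372, chr11:32297130-32297189, chr7:103826668-103826722 and chr7:103812659-103812713, are shown with the differing base in capitals, because a coding read that misses it fits both genes of the pair.
Hba-a1: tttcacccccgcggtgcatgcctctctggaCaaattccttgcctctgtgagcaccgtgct
Hba-a2: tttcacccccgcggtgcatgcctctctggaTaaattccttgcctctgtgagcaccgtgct
Hbb-bs: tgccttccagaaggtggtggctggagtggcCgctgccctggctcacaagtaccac
Hbb-bt: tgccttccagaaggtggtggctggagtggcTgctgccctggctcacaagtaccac

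Among all 50-base words of the longest coding transcript, 67.5% of those of Hba-a1 and 86.9% of those of Hba-a2 also occurred in the other alpha gene. The shared part was 65.8% for Hbb-bs and 58.3% for Hbb-bt. Since the authors counted only reads that aligned to a single place, the count of each adult globin gene rests on the stretches it does not share, and the split within a pair is less certain than its sum. No word of Hbb-y, Hba-x or Slc4a1 was shared with another gene, and 13.8% of those of Alas2 (chromosome X, 150547375 to 150570638, plus strand) occurred also in the annotated transcripts of Apex2 or of a microRNA gene.

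Upstream of the start site, the adult globin genes carry the promoter elements long described for globin genes. RefSeq promoters (GRCm38.p6) were given for 7 of the 8 genes, Slc4a1 being the exception. The 250 bases before each start were searched on both strands for the TATA box letters TATAA, for the CCAAT box, for the KLF-type motif CACCC and for the GATA factor motif GATAA. The last 120 of these bases are shown for 4 genes that the results turn on, at chr11:32283552-32283671, chr7:103827929-103828048, chr7:103813924-103814043 and chrX:150547297-150547416, with these letters or their reverse complement in capitals.
Hba-a1: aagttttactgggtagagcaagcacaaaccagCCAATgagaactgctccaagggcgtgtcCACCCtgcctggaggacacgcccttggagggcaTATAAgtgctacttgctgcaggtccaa
Hbb-bs: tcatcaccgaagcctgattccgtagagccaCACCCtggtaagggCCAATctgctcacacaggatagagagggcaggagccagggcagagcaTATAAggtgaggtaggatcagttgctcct
Hbb-bt: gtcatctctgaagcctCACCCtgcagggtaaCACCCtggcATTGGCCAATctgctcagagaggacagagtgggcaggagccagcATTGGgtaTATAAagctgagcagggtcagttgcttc
Alas2: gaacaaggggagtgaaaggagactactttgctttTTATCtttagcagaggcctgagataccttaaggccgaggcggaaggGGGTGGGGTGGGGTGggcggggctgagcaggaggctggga

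The Hba-a2 promoter held the same 120 bases as Hba-a1, shifted by 3. All 4 adult globin genes held each of the 4 motifs within 250 bases, with TATAA beginning 27 to 30 bases before the start. Alas2 held the KLF-type and GATA motifs, and TATAA letters at 207 bases, but no CCAAT box in this window. Of 32851 promoter windows of the same length, 22.8% held the first of these motifs, 33.8% the CCAAT box, 52% the KLF-type motif and 22.6% the GATA motif, so each motif alone is common.

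Library totals lay between 14272174 and 29639719 counts. Crystallin genes took 23.8% to 76.1% of the counts of a library and Gm42418, a gene over a ribosomal RNA repeat, 2.53% to 42.6%, so levels are given as CPM (counts scaled to the size of the library) after TMM scaling, which sets libraries on the bulk of their genes. In bulk lens RNA, more red cells and more mRNA per red cell cannot be told apart. Markers of red cell precursors were at or near 0: Gata1, the master regulator of erythroid genes, had 2 counts in all 18 libraries together, and Klf1, the activator of adult beta globin, had 27 counts with at most 6 in a library. Gfi1b, Hemgn, Kel and Icam4 had none, and Rhag had 3. The filter on low counts kept 13938 genes, among them 5 of the 8 members: the adult globin genes and Alas2.

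The alpha globin genes ordered the 3 libraries alike within each of the 6 groups. Hba-a1 was at 5.03, 3.34 and 6.38 CPM in Cryaa-WT replicates 1, 2 and 3, at 5.39, 10.8 and 7.90 CPM in Cryaa-R49C-het and at 4.49, 16.0 and 9.73 CPM in Cryaa-R49C-homo lenses. At 14 days it was at 11.2, 1.80 and 2.08 CPM in Cryab-WT, at 40.5, 12.6 and 18.4 CPM in Cryab-R120G-het and at 4.19, 12.9 and 8.49 CPM in Cryab-R120G-homo lenses. Replicate 1 of Cryab-WT thus stood 6.24 times above replicate 2 of the same group, within the range of the homo libraries, and every het library lay above it. Hba-a2 ran from 2.47 to 4.1 CPM in Cryaa-WT, from 3.81 to 8.25 CPM in Cryaa-R49C-het and from 3.35 to 11.2 CPM in Cryaa-R49C-homo lenses. In the Cryab line it was at 7.93, 0.934 and 1.78 CPM in WT, at 26.5, 9.79 and 14.0 CPM in het and at 3.21, 8.53 and 7.80 CPM in homo lenses. The highest library of each mutant group was the same for both alpha genes.

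Hbb-bs had the highest count of the set in every library. Hbb-bs was at 35.8, 23.0 and 31.7 CPM in Cryaa-WT, at 28.0, 61.4 and 47.2 CPM in Cryaa-R49C-het and at 24.1, 85.3 and 46.0 CPM in Cryaa-R49C-homo lenses. At 14 days it was at 98.5, 10.9 and 15.5 CPM in Cryab-WT, at 292.1, 85.7 and 131.0 CPM in Cryab-R120G-het and at 31.4, 115.3 and 73.3 CPM in Cryab-R120G-homo lenses. Here Cryab-WT replicate 1 lay above 1 het library and above 2 of the 3 homo libraries, while WT replicates 2 and 3 lay below every mutant library of the line. Hbb-bt was at 12.0, 6.45 and 10.3 CPM in Cryaa-WT and reached 36.1 CPM in Cryaa-R49C-homo replicate 2. In Cryab-WT it was at 24.3, 1.60 and 4.30 CPM, a 15.2-fold range on 24 to 221 counts, against 80.2, 21.5 and 35.2 CPM in Cryab-R120G-het lenses. The sum of the 4 adult globin genes was 142.0, 15.3 and 23.7 CPM in the Cryab-WT libraries, 439.3, 129.6 and 198.6 CPM in Cryab-R120G-het, and 48.0, 171.2 and 107.4 CPM in Cryab-R120G-homo. In the Cryaa line it lay between 35.3 and 56.2 CPM in WT, between 45.5 and 100.5 CPM in het and between 40.0 and 148.5 CPM in homo lenses.

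**Figure D1:**
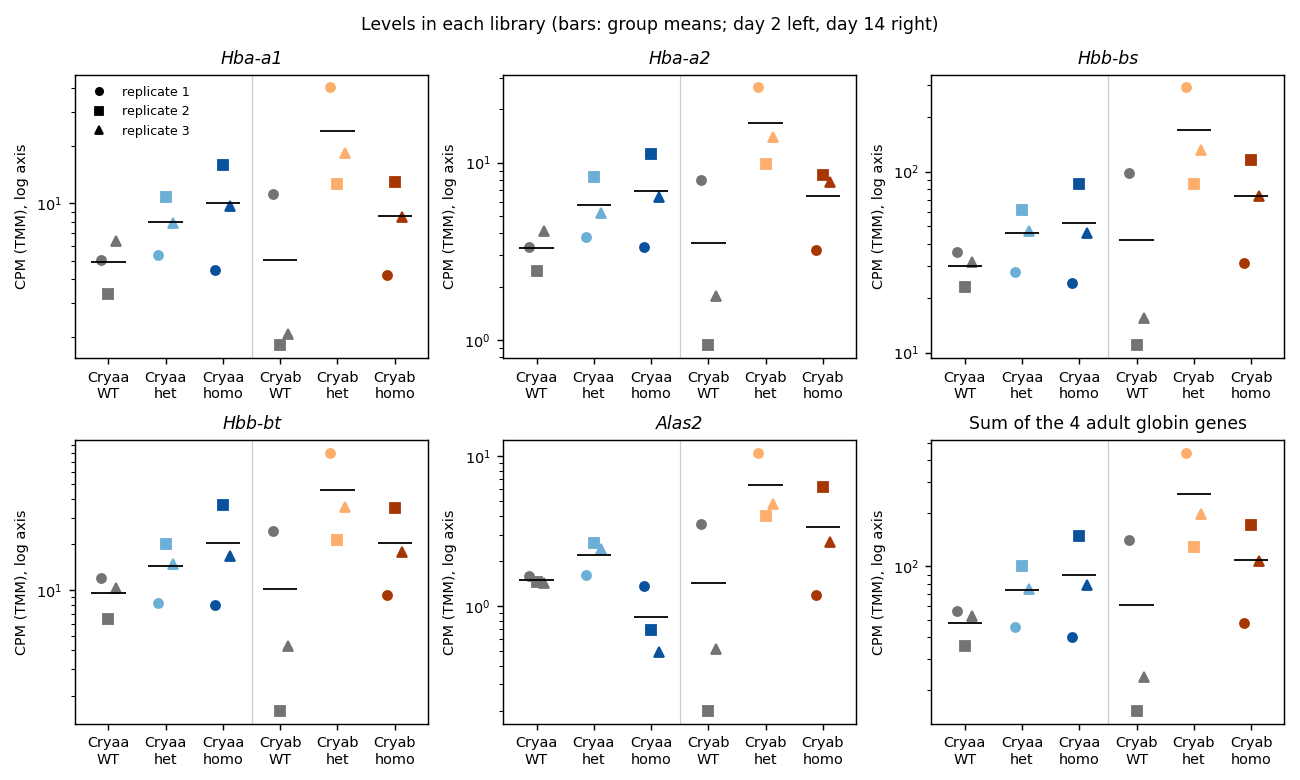
CPM after TMM scaling on a log axis for the 5 genes with enough counts and for the sum of the 4 adult globin genes, by group, with 1 point per library (circle, square and triangle for replicates 1, 2 and 3) and a bar at the group mean. The Cryab-WT points are split, with replicate 1 at 142.0 CPM of adult globins and the other 2 at 15.3 and 23.7 CPM.

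Compared per kb of exon, Hbb-bs was the most abundant of the 5 in each group, at 39.3 CPM per kb in Cryaa-WT and 220.8 in Cryab-R120G-het lenses, followed by Hbb-bt, Hba-a1, Hba-a2 and Alas2 at 13.6, 6.05, 4.96 and 0.619 in Cryaa-WT. Counted per kb of 50-base words that occur in no other gene, which allows for the reads lost within a pair, Hbb-bs stayed first at 152.5, but Hba-a2 came to 50.2, Hbb-bt to 35.1 and Hba-a1 to 23.3 CPM. The order of the other adult globin genes therefore depended on how shared sequence was treated.

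The embryonic genes were hardly detected. Hbb-y, the embryonic beta-like chain, had 1 count in 1 of the 18 libraries, Cryaa-R49C-homo replicate 2. Hba-x, the embryonic zeta-like chain, had 1 count in each of 3 libraries, Cryaa-R49C-het replicate 2 and Cryaa-R49C-homo replicates 2 and 3. A count of 0 allows up to 3 counts, which is 0.0661 to 0.330 CPM depending on the library, so levels below this were not detectable at this depth. Slc4a1, which encodes the band 3 anion exchanger of the red cell membrane, had 47 counts in all and at most 10 in a library, with 4 libraries at 0. Its counts were 1, 3 and 0 in Cryaa-WT, 3, 0 and 2 in Cryaa-R49C-het, 5, 10 and 1 in Cryaa-R49C-homo, 1, 2 and 0 in Cryab-WT, 3, 2 and 3 in Cryab-R120G-het and 0, 3 and 8 in Cryab-R120G-homo libraries, and the groups of each line overlapped. These limits cover counting error only.

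Alas2 followed the globin genes in the Cryab line but not in the Cryaa-R49C-homo lenses. It was at 3.52, 0.20 and 0.519 CPM in Cryab-WT (32, 3 and 7 counts), at 10.5, 3.98 and 4.76 CPM in Cryab-R120G-het and at 1.18, 6.27 and 2.68 CPM in Cryab-R120G-homo lenses. In the Cryaa line it was at 1.58, 1.45 and 1.44 CPM in WT and at 1.61, 2.62 and 2.39 CPM in het lenses. In Cryaa-R49C-homo lenses it was at 1.37, 0.691 and 0.494 CPM, below every WT library after TMM scaling. By library size alone, replicate 1 of that group was at 3.09 CPM and above the WT libraries, which were at 2.08, 1.75 and 2.87 CPM. Replicate 2 of that group held the highest globin level of the line together with the second lowest Alas2 level.

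The spread between replicates was large for all 5 genes. After subtraction of the 6 group means, the residual SD of log2 CPM over the 18 libraries was 0.89 for Hba-a1, 0.88 for Hba-a2, 0.99 for Hbb-bs, 1.11 for Hbb-bt and 1.0 for Alas2, against a median of 0.41 over the 13938 genes kept. Between 93.4% and 97.6% of these genes had a smaller residual SD than a given member. The biological coefficient of variation that edgeR fitted was 0.547 to 0.704, against a median of 0.262. Their levels were far apart, with Hbb-bs above 96.2% of the genes in mean log2 CPM and Alas2 above 40.5%, while their SDs were close. Within the Cryaa line the residual SD was 0.44 for Alas2 and 0.62 to 0.77 for the globin genes, and within the Cryab line 1.35 for Alas2 and 1.07 to 1.37 for the globin genes, where the medians of all genes were 0.38 and 0.39. A fit that lowers the weight of libraries far from their group gave Cryab-WT replicate 1 a weight of 0.132 to 0.184 for the 5 genes, and replicates 2 and 3 of that group 0.988 to 1.

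**Figure D2:**
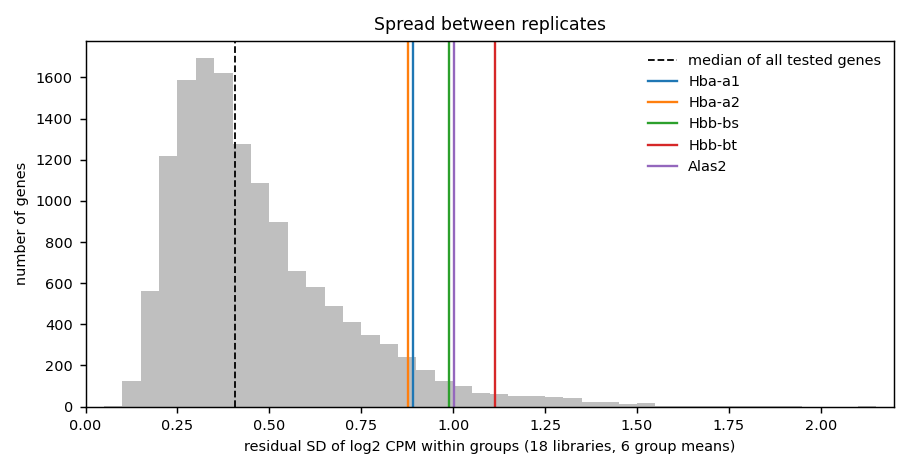
Number of genes (vertical axis) by residual SD of log2 CPM within groups (horizontal axis) for the 13938 genes kept, with the median of 0.41 as a dashed line and the 5 members as coloured lines. All 5 members lie in the right tail, between 0.88 and 1.11.

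In Cryaa-R49C-het against Cryaa-WT lenses, all 5 genes had a higher fitted level, with log2 fold changes of 0.57 to 0.80 and a median of 0.59, where the median of all genes tested was -0.01. Without Cryaa-R49C-het replicate 2 the 5 genes stood at 0.27 to 0.45, and without het replicate 1 Hba-a2 stood at 1.02. None passed a false discovery rate (FDR) of 0.05 in edgeR's quasi-likelihood test (FDR 0.839 to 0.892), and 0 of 5 had an unadjusted p under 0.05. DESeq2 and a likelihood-ratio test with outlier-robust dispersions called none either, and 0.00717% of all genes were called by the quasi-likelihood test in this contrast. Only Alas2 had het libraries that all lay above the WT libraries, as did 9.57% of all genes. Its log2 fold change was 0.57 ± 0.70 (SE, n = 3 per group, edgeR FDR 0.867).

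Cryaa-R49C-homo lenses had higher fitted levels of all 4 adult globin genes than WT lenses, with log2 fold changes of 1.03 ± 0.69 for Hba-a1, 1.07 ± 0.65 for Hba-a2, 0.78 ± 0.79 for Hbb-bs and 1.08 ± 0.86 for Hbb-bt (SE). For each of them the homo libraries overlapped with WT: replicate 1 was within the WT range and replicate 2 was the highest of the line. Without replicate 2 the Hba-a1 value was 0.53 and the Hbb-bs value 0.22. Alas2 differed by -0.76 ± 0.73, and its 3 homo libraries lay below the 3 WT libraries after TMM scaling, as did those of 12.6% of all genes, but not by library size alone. The Alas2 value was -0.30 by library size alone and -1.31 without homo replicate 1. None of the 5 passed the threshold (edgeR FDR 0.354 to 0.611, 0 with an unadjusted p under 0.05, none called by DESeq2 or the robust likelihood-ratio test), while 9.79% of all genes did. A log2 fold change of -1.33 ± 0.71 separated Alas2 in homo from het lenses, with an edgeR FDR of 0.276. These groups did not overlap after TMM scaling, as in 10.5% of all genes, but did by library size alone. None of the 5 was called there by the quasi-likelihood test or DESeq2, and 0 had an unadjusted p under 0.05, where the quasi-likelihood test called 8.32% of all genes. The robust likelihood-ratio test called 1 (Alas2), but it also called more of all genes than the quasi-likelihood test.

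Mean adult globin CPM in Cryab-R120G-het lenses was 255.8 ± 162.6 (SD, n = 3) against 60.3 ± 70.9 in Cryab-WT, a ratio of 4.24. Without Cryab-WT replicate 1 the WT mean was 19.5 CPM and the ratio 13.1. Fitted log2 fold changes of the 5 genes ran from 2.04 to 2.32, and without that library from 3.61 to 4.15. Without Cryab-R120G-het replicate 1 those of the adult globin genes were lower, at 1.39 to 1.82. All 3 het libraries lay above all WT libraries for Hba-a1, Hba-a2 and Alas2, as in 4.62% of all genes (5.47% lay lower without overlap), and overlapped with WT replicate 1 for Hbb-bs and Hbb-bt. At FDR 0.05 the quasi-likelihood test called 0.00717% of all genes in this contrast. These values belong to the contrast in which the genes had been picked.

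Cryab-R120G-homo lenses shared the WT libraries of that contrast. Their mean adult globin level was 108.9 ± 61.6 CPM, 1.81 times the WT mean and 5.59 times the mean of WT replicates 2 and 3. The log2 fold changes against WT were 0.83 to 1.07 for the globin genes and 1.42 ± 0.78 (SE) for Alas2. None of the 5 genes had groups that did not overlap, against 4.51% of all genes higher and 4.5% lower in homo. No member was called by edgeR's quasi-likelihood test (FDR 0.879 to 0.957, 0 with an unadjusted p under 0.05) or DESeq2, and 0.0502% of all genes, 7 in number, were called by the first. The robust likelihood-ratio test called 4 members (all but Hba-a1), but it also called more of all genes than the quasi-likelihood test. With the replicate number as a block the values were 1.28 to 1.80, none of the 5 was called, and 18 of all genes were. Against Cryab-R120G-het, whose libraries are also those of the picked contrast, homo lenses had lower fitted levels of all 5 genes, by -0.90 to -1.47 on the log2 scale. Without Cryab-R120G-het replicate 1 these values were -0.36 to -0.87, and without homo replicate 2 that of Hba-a1 was -1.91. Hba-a2 alone was lower without overlap, as were 3.46% of all genes, while 3.4% were higher. The quasi-likelihood test called 0% of all genes there and DESeq2 none, the robust likelihood-ratio test called none of the members, and 0 of the 5 had an unadjusted p under 0.05.

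Between the WT lenses of the lines, which differ in both line and age, no member was called by edgeR's quasi-likelihood test (FDR 0.728 to 0.990, 0 of 5 with an unadjusted p under 0.05) or DESeq2, while 23.2% of all genes were called by the first. The robust likelihood-ratio test called 1 member (Alas2), a count that is not set against that test's own share of all genes. The groups overlapped for all 5, whereas 20.2% of all genes were higher and 22.9% lower without overlap at 14 days. The log2 fold changes of 14-day over 2-day WT lenses were between -0.22 and 0.45 with SEs of 0.71 to 0.89. Without Cryab-WT replicate 1 they were -1.19 to -2.06 after TMM scaling, so the direction of those above 0 depended on that library. Scaled by library size alone they were -1.15 to -1.75, where the median of all genes was also shifted, to -1.61. The Cryab-WT libraries are also those of the picked contrast, so this comparison is not independent of the choice of genes.

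The effect of the heterozygous genotype was larger in the Cryab than in the Cryaa line by 1.44 to 1.75 on the log2 scale, a value that contains the picked contrast and is given without a test. Leaving out 1 library moved it between 0.79 (Hbb-bs without Cryab-R120G-het replicate 1) and 3.58 (Alas2 without Cryab-WT replicate 1). The effect of the homozygous genotype differed between the lines by -0.20 to 0.05 for the 4 adult globin genes, but this rested on Cryab-WT replicate 1: without it the differences were 1.11 to 1.73 (edgeR FDR 0.317 to 0.541). With the replicate number as a block they were 0.41 to 1.03, so no direction was settled. For Alas2 it differed by 2.18 ± 1.07 (SE), positive because Alas2 was lower in Cryaa-R49C-homo and higher in Cryab-R120G-homo than in WT lenses, with an edgeR FDR of 0.351. Of all genes, 2.91% passed the threshold in this difference and none of the 5 members did, with 0 at an unadjusted p under 0.05 and none called by DESeq2. The robust likelihood-ratio test called 1 (Alas2), but it also called more of all genes than the quasi-likelihood test. Leaving out Cryab-WT replicate 1 gave Alas2 a difference of 4.01 with an edgeR FDR of 0.0156. All of these differences use the Cryab-WT libraries of the picked contrast, so this call is not independent of the choice of genes.

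**Figure D3:**
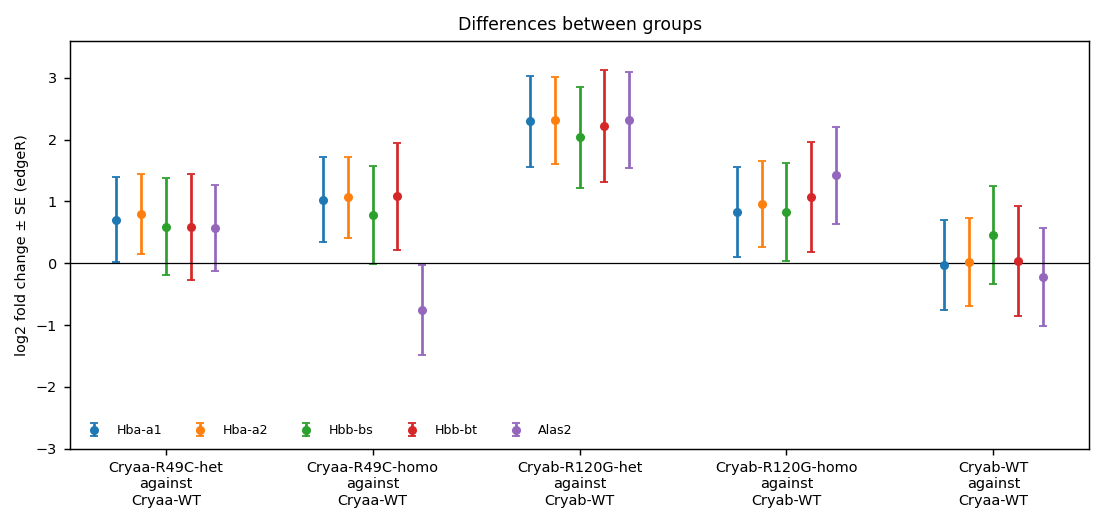
Fitted log2 fold change (points) and its standard error (bars) of the 5 genes in each mutant group against the WT lenses of its line and between the WT lenses of the lines. The members stand together except in Cryaa-R49C-homo, where the globin genes lie between 0.78 and 1.08 and Alas2 at -0.76. Cryab-R120G-het against Cryab-WT is the contrast in which the genes were picked.

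While the sum of the adult globins moved up to 9.29-fold within a group, shares of its counts were followed in each library. Hba-a1 made up 52.1% to 65.9% of the alpha globin counts over the 18 libraries (median 58.6%). The Hbb-bs share of the beta globin counts was 70.3% to 87.2% (median 77.3%), with the lowest value in Cryaa-R49C-homo replicate 2 and the highest in Cryab-WT replicate 2, where it rested on 188 counts. The exact 95% intervals of these 2 libraries, 68.8% to 71.7% and 81.6% to 91.6%, did not overlap. The intervals cover counting error only, and the libraries were taken as the lowest and highest of the 18, from different lines and ages. Alpha globin genes made up 12.5% to 20.4% of all adult globin counts (median 16.9%). This share is one of uniquely counted reads and not of chains.

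The proportion of Alas2 to Hbb-bs differed most within the Cryaa-R49C-homo group. The Alas2 share of the summed Alas2 and Hbb-bs counts was 4.22% to 5.93% in Cryaa-WT, 4.1% to 5.42% in Cryaa-R49C-het and 5.35% in Cryaa-R49C-homo replicate 1. In Cryaa-R49C-homo replicates 2 and 3 it was 0.804% (95% exact binomial interval 0.504% to 1.21%) and 1.06% (0.568% to 1.81%). Both intervals lay below those of the other 7 Cryaa libraries, whose lowest bound was 2.99%. The intervals cover counting error only, since PCR reads without molecular identifiers are not independent molecules, and they are no test between libraries. In the Cryab line the share was 1.80% to 3.46% in WT, 3.49% to 4.44% in het and 3.52% to 5.16% in homo lenses, so the WT libraries lay below all mutant libraries of the line and below the Cryaa-WT libraries, with overlapping intervals. The lowest Cryab value, in WT replicate 2, rested on 3 Alas2 counts and had an interval of 0.372% to 5.16%. Over groups, the mean share in Cryaa-R49C-homo differed by -2.42 percentage points from that in WT (exact permutation test, two-sided, p = 0.3, not adjusted for the number of comparisons). For Cryaa-R49C-het the difference was -0.04 percentage points (exact permutation p = 0.9), and for Cryab-R120G-homo 1.27 percentage points (exact permutation p = 0.1), also not adjusted. The last of these uses the Cryab-WT libraries of the picked contrast and is not independent of the choice of genes. With 3 libraries against 3, 0.1 is the smallest p this test can give.

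**Figure D4:**
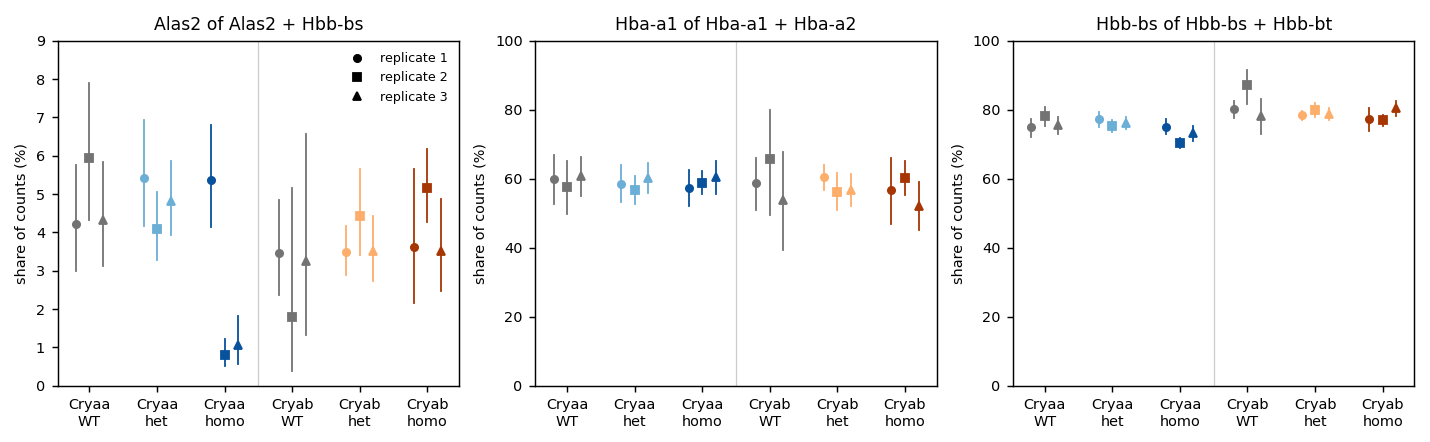
Share of counts in each library (symbols as for the levels) with exact 95% binomial intervals (lines), for Alas2 of Alas2 plus Hbb-bs on an axis from 0% to 9%, and for Hba-a1 of both alpha globins and Hbb-bs of both beta globins on axes from 0% to 100%. Cryaa-R49C-homo replicates 2 and 3 lie at 0.804% and 1.06% Alas2, while the 2 globin shares run from 52.1% to 65.9% and from 70.3% to 87.2%.

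The libraries of Cryaa-R49C-homo also differed in other measures. Gm42418 took 2.53%, 24.5% and 42.6% of the counts of replicates 1, 2 and 3, against 11.9% to 30.1% in the WT and het libraries of the line, so replicates 1 and 3 lay outside that range. Crystallin genes took 61.2%, 37.7% and 23.8% of the counts of replicates 1, 2 and 3, against 46.3% to 61.4% in the WT and het libraries. The summed level of 14 endothelial genes was 154.0 and 152.5 CPM in replicates 2 and 3, 54.0 CPM in replicate 1 and 48.5 to 73.1 CPM in Cryaa-WT. The summed level of 13 other heme synthesis genes was 48.5 and 48.7 CPM in replicates 2 and 3, 100.7 CPM in replicate 1 and 64.0 to 69.1 CPM in Cryaa-WT. Their part in the Alas2 values was not tested.

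Genes whose deviations from the group means ran most like those of the adult globins were looked for over the 18 libraries. Among genes that were no members, Ehd4 had the highest Pearson correlation with the mean log2 CPM of the 4 adult globin genes (r = 0.91), followed by Rassf9 (0.90), Klf2 (0.88), Adap2 (0.87), Topbp1 (0.86), Phykpl (0.85), Ccdc85a (0.85), B4galnt4 (0.85), Trnp1 (0.83) and Fam43a (0.83). Klf2 is a transcription factor of endothelium exposed to blood flow. These libraries share their pools of lenses and their scaling, 5 of these 10 genes had at most 55 counts in a library, and 1085 of the 13933 genes that are no members had r above 0.5, so the list is a description. With no subtraction, the most similar genes in the 9 Cryaa libraries were Tmsb4x (r = 0.97), Tgfb2 (0.95), Gimap6 (0.94), Cnot4 (0.94) and Hsph1 (0.91). In the 9 Cryab libraries they were Rhpn2 (0.94), Gm15787 (0.91), Cd38 (0.91), Tbrg4 (0.89) and Col11a1 (0.89), the first 3 with at most 9 counts in a library.

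Markers of tissues next to the lens moved with the globins in part of the libraries. In Cryab-WT lenses the summed level of 14 retina genes was 832.4, 25.2 and 86.5 CPM in replicates 1, 2 and 3, the same library being highest as for the globins. The retina sum was 653.9, 308.9 and 108.5 CPM in Cryab-R120G-het and 1264, 645.9 and 222.6 CPM in Cryab-R120G-homo lenses, where the library with the most retina signal had the least adult globin, 48.0 CPM. Over the 18 libraries the median r of the retina genes with the globin deviations was 0.52 and that of the endothelial genes 0.50, against 0.01 for all genes that are no members. Macrophage genes had a median of 0.35, mesenchyme and pericyte genes 0.21, pigment and ciliary epithelium genes 0.19 and lens genes -0.06. Red cell membrane and cytosol genes had a median of 0.16, erythroid transcription factors 0.125 and heme synthesis genes -0.29, while Alas2 itself had r = 0.77. Cryab-WT replicate 1 was the highest of its group also for 12 pigment and ciliary epithelium genes (36.7 CPM against 17.2 and 19.4 CPM), macrophage genes (4.63 CPM against 1.80 and 1.56 CPM) and endothelial genes (18.5 CPM against 11.3 and 12.9 CPM). It was the lowest of its group for 10 mesenchyme and pericyte genes (16.1 CPM against 24.9 and 29.8 CPM). Between Cryab-R120G-het and Cryab-WT, where the members had a median log2 fold change of 2.30, the pigment and ciliary epithelium list had a median of 2.23, macrophage genes 1.21, endothelial genes 0.40 and retina genes 0.33, with no gene of these lists, and 0.00717% of all genes, past the threshold. The study had listed Rgr, Dct, Pmel, Ttr and Slc6a13 of the pigment list as altered in this same contrast. It had also listed Slc1a3 and Six6 of the retina list there. These 2 medians are therefore not independent of how the genes were chosen. No library of the set had all retina genes at 0, and at most 1 of the 14 was at 0 in any library. Of 8 neutrophil genes, which would mark white blood cells, only Ltf was kept by the filter, 6 or 7 were at 0 in each Cryab-WT library, and S100a8 and S100a9 had at most 6 and 3 counts in a library. Ltf had r = -0.43 with the globin deviations. The part of these tissues in the globin values was not tested.

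**Figure D5:**
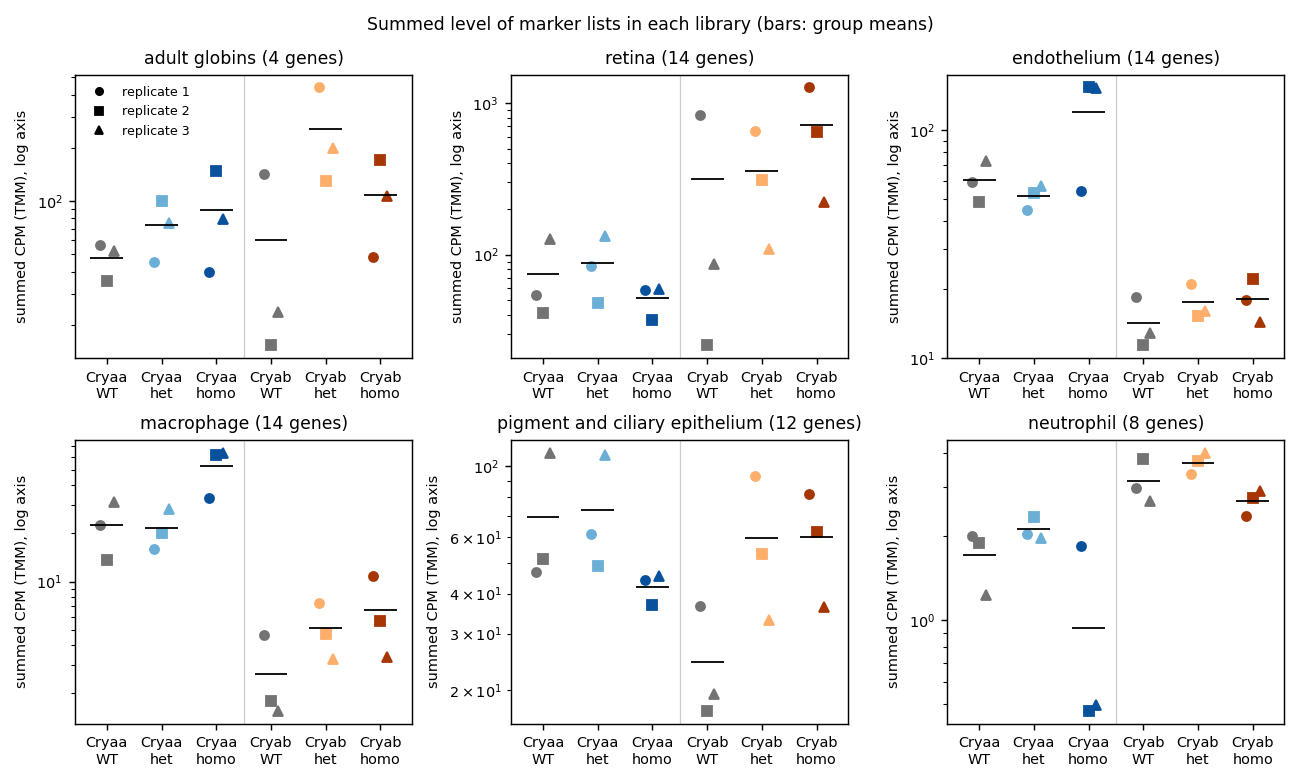
Summed CPM on a log axis of the adult globins and of 5 marker lists in each library, by group, with bars at group means. In Cryab-WT, replicate 1 is highest for adult globins (142.0 CPM) and retina (832.4 CPM). In Cryaa-R49C-homo, replicates 2 and 3 are highest for endothelium (154.0 and 152.5 CPM).

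The rest of the erythroid program was examined with lists of other globin genes, heme synthesis genes, red cell membrane and cytosol genes and erythroid transcription factors. In Cryaa-R49C-het against WT and in both Cryab mutants against WT, no gene of these lists passed the threshold, out of 1 other globin gene, 13 heme synthesis genes, 23 red cell genes and 7 transcription factors tested. Of all genes, 0.00717% passed in each het comparison and 0.0502% in Cryab-R120G-homo lenses, so these counts of 0 do not set the lists apart. Their median log2 fold changes in Cryab-R120G-het lenses were 0.28 for heme synthesis, 0.00 for red cell genes and -0.24 for transcription factors, against 0.00 for all genes. Cygb, the cytoglobin of fibroblasts and many tissues, was the single other globin gene tested. It was at 0.479 ± 0.353 CPM in Cryab-WT, 1.95 ± 0.99 CPM in Cryab-R120G-het and 1.68 ± 0.27 CPM in Cryab-R120G-homo lenses (SD, n = 3).

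In Cryaa-R49C-homo against Cryaa-WT lenses, 1 of 13 heme synthesis genes was higher, 1 of 23 red cell genes higher and 3 lower, and 1 of 7 transcription factors higher, where 9.79% of all genes were called. The lower red cell genes were Ermap, an erythroblast membrane protein gene that fell from 7.24 ± 2.75 to 0.430 ± 0.182 CPM (SD, n = 3), Ank1, the ankyrin of the membrane skeleton, from 1.89 ± 0.58 to 0.237 ± 0.227 CPM, and Tmod1, a tropomodulin that caps actin filaments and is also a lens fibre gene, from 14.0 ± 2.5 to 4.19 ± 3.03 CPM. Their log2 fold changes were -4.00, -3.06 and -1.72, and their edgeR FDRs 3.5e-08, 0.00045 and 0.00364. Isg20, an exonuclease, rose by 2.86 (edgeR FDR 0.0111), and Cpox, an enzyme late in heme synthesis, by 1.27 (edgeR FDR 0.0193). Lmo2, a bridging factor of erythroid and endothelial transcription complexes, rose by 1.88 (edgeR FDR 0.00814). For both Isg20 and Lmo2, 1 homo library stayed in the WT range. Ermap and Tmod1 stood at 11.1 ± 1.0 and 31.4 ± 6.9 CPM (SD, n = 3) in Cryab-WT lenses, the group in which the lowest library held 15.3 CPM of adult globins.

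Between WT lenses, 5 red cell genes were higher and 2 lower at 14 days, 1 of 13 heme synthesis genes was higher, and 4 of 7 transcription factors were lower, where 23.2% of all genes were called. Myb fell by 4.01, Bcl11a by 3.44, Lmo2 by 2.67 and Ldb1 by 0.93 on the log2 scale (edgeR FDR 1.6e-05, 0.00173, 0.00323 and 0.0489). Fech, which inserts iron into heme, rose by 0.79 (edgeR FDR 0.0402). Cygb fell by 1.87 (edgeR FDR 0.0168), and Gypc, a glycophorin of the membrane skeleton also made outside red cells, by 3.91 (edgeR FDR 0.000103). Macrophage and endothelial lists were lower at 14 days in 13 of 14 and 12 of 14 genes, with median log2 fold changes of -3.56 and -2.84, while the 4 adult globin genes stood between -0.03 and 0.45, or between -1.19 and -1.71 without Cryab-WT replicate 1. The scaling shift given above for this contrast applies to all of these values.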

How the data were processed

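RNA was prepared from pooled lenses, amplified from poly-A with a Clontech kit and sequenced as single 50-base reads on an Illumina HiSeq instrument. Per the labels and the study's methods, the authors called bases with CASAVA 1.8, aligned reads to GRCm38 with STAR 2.0.4b and counted uniquely aligned, unambiguous reads per gene with featureCounts 1.4.5, and deposited the raw counts. The strand setting is not given in the sources used here. Deposited CPM, RPKM and log2 CPM values were not used.

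Genes were kept by edgeR's filterByExpr (13938 of 40800), scaled by TMM, and tested with edgeR 4.0.16 in R 4.3.3 by a quasi-likelihood test over all 18 libraries and 6 groups, with Benjamini-Hochberg adjustment over all genes kept. Log2 CPM used a prior count of 2. Exact binomial intervals and permutation tests used SciPy 1.17.1. Total counts were 14272174 to 29639719 per library, so a count of 0 allows at most 0.0661 to 0.330 CPM. Nothing says that libraries of a group came from separate litters, so p-values measure the spread between these pools.

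The members and lists were chosen with earlier results of these data known. Named were all members, from each list at most 5 genes past FDR 0.05 per contrast, and the genes most like the adult globins (10 over all libraries, 5 per line). Replicate numbers were checked by correlating deviations from group means: those of Cryab-R120G-homo and Cryab-WT correlated at 0.277, 0.176 and 0.156 for numbers 1, 2 and 3, all over 0.1, and were taken as pairs from the data alone. In the other contrasts at least 1 pair did not pass 0.1. Alternatives were DESeq2 1.42.0, a robust likelihood-ratio test, other scalings and filters, fewer libraries and the replicate block. Loci came from the GENCODE annotation of GRCm38 and promoters from RefSeq (GRCm38.p6).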

Additional observations from a re-analysis of the deposited data

Results flagged for a closer look

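The effect of the homozygous genotype (log2 fold change of homo against WT lenses) differed between the lines, by edgeR's interaction test, for 11 genes of the lists examined beside the globins, each higher in the Cryab than in the Cryaa line, where 2.91% of all genes passed the threshold. They were 1 of 1 other globin gene, 3 of 23 red cell genes, 4 of 12 pigment and ciliary epithelium genes and 3 of 23 lens genes tested. Among erythroid lists these were Ermap, with a difference of 4.08 (edgeR FDR 4.1e-06), Ank1 with 2.74 (edgeR FDR 0.0344), Tmod1 with 1.83 (edgeR FDR 0.0496) and the cytoglobin gene Cygb with 2.62 (edgeR FDR 0.0495). Among pigment and ciliary epithelium genes they were Tyr with 7.27 (edgeR FDR 0.0221), Slc6a13 with 4.32 (edgeR FDR 0.000274), Pmel with 3.73 (edgeR FDR 0.00469) and Dct with 2.39 (edgeR FDR 0.0241). All Cryab-WT libraries held 0 counts of Tyr and the Cryab-R120G-homo libraries 2 to 5, so its difference depends on how the fit treats zeros and is no measure of size. Among lens genes they were Lgsn with 2.01 (edgeR FDR 0.00921), Birc7 with 1.83 (edgeR FDR 0.00498) and Bfsp1 with 1.83 (edgeR FDR 0.0344). Line and age cannot be told apart in these differences. They use the Cryab-WT libraries of the contrast in which the study had listed Slc6a13, Pmel and Dct. The pigment count is therefore not independent of how that list was chosen. None of the 4 adult globin genes nor Alas2 was among them.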

How the results depend on the processing

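Leaving aside the contrast in which the genes were picked and the het difference that holds it, no member passed FDR 0.05 under edgeR's quasi-likelihood test, with DESeq2's scaling or DESeq2 itself, with only the libraries compared, or with the replicate number as a block (0 of 5 members wherever the block could be fitted, log2 fold changes of 1.28 to 1.80 in Cryab-R120G-homo against WT). With every gene of at least 1 count kept, which left no finite prior degrees of freedom, the calls were 4 in Cryaa-R49C-homo against WT, 1 against het, 2 in Cryab-R120G-homo against WT, 4 between the Cryab mutants and 1 in the homo difference between lines. The robust likelihood-ratio test called 4 in Cryab-R120G-homo against WT, and 1 each in Cryaa-R49C-homo against het, WT against WT and the homo difference. Of all genes it called 257 in the first, 3052 in the second and 1454 in the last of these, more than the quasi-likelihood test. Counts past the threshold in the picked contrast (5 with every gene kept, 5 by the robust test) and in the het difference (3 with every gene kept) reuse the values that chose the genes and are no test of them. Library size alone called 3 between WT lenses. Leaving out a library gave 0 to 1 calls in the homo difference, the 1 being Alas2 without Cryab-WT replicate 1, and 0 elsewhere. Among the fold changes recomputed, directions reversed between WT lenses, between Cryaa-R49C-homo and het, and in the homo difference between lines, and in no other comparison. Between WT lenses, Hba-a2 and Hbb-bt were -0.043 and -0.032 with every gene kept, Hba-a2, Hbb-bs and Hbb-bt were -1.59, -1.15 and -1.57 by library size and -0.84, -0.71 and -1.12 by the robust test, and Hba-a1 was 0.012 by DESeq2. Leaving out 1 library there gave -1.34 to 0.40 for Hba-a1, -1.30 to 0.51 for Hba-a2, -1.19 to 0.91 for Hbb-bs, -1.71 to 0.56 for Hbb-bt and -2.06 to 0.36 for Alas2. For Cryaa-R49C-homo against het it gave -0.18 to 0.68, -0.25 to 0.62, -0.38 to 0.52 and -0.21 to 0.88 for the globin genes in the same order, negative without homo replicate 2. In the homo difference, Hba-a1, Hba-a2 and Hbb-bt were 0.69, 0.83 and 1.25 by the robust test and 0.41, 0.45 and 1.0 with the replicate block, and Hbb-bt was 0.0027 with DESeq2's scaling. Leaving out 1 library there gave -0.64 to 1.11, -0.60 to 1.21, -0.43 to 1.70 and -0.62 to 1.73 for the globin genes, highest without Cryab-WT replicate 1. The causes were not tested. Of all genes, calls moved between 1364 and 2887 in Cryaa-R49C-homo against WT under the robust test (478 with only its libraries), from 1160 to 3052 against het (294), from 1 to 140 in Cryab-R120G-het with every gene kept, from 7 to 302 in Cryab-R120G-homo (257 by the robust test, 20 by DESeq2, 18 with the block), from 3237 to 11596 between WT lenses by library size and from 406 to 1454 in the homo difference under the robust test.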
